A study of Mus musculus with 2 samples.

Results

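The subject is a set of 10 genes that set the threshold for cell death at the mitochondrion and at the caspases: Bcl2, Bcl2l1, Mcl1, Bcl2l11, Bak1, Bid, Bad, Bok, Xiap and Cflar. They were chosen by name, with earlier results of these data known. Each of the 10 symbols matched 1 of the 32285 genes counted in mouse uterus. Single-cell RNA was measured in 2 libraries, each from uteri of 5 mice pooled before cell capture. In the group called DOX here, the mice had been given 3 mg/kg of doxorubicin, a topoisomerase II poison of the anthracycline class that breaks DNA. In the group called DOX plus AMH, they had received the same dose of doxorubicin and anti-Müllerian hormone (AMH), a hormone of the TGF-beta family, at 0.75 mg/kg. All animals of both groups had therefore received doxorubicin, and the uteri were taken at 4 h. The series text describes 2 weekly doses from postnatal day 25, but for bulk sequencing at 4 and 24 h, and whether that schedule holds for these animals is not stated. The strain is not given in the sources used here, and a library without doxorubicin was not analysed here.

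In the intrinsic pathway of apoptosis, guardian proteins (BCL2, BCL-XL and MCL1) hold the effectors BAX and BAK in check at the outer mitochondrial membrane. BH3-only proteins such as BIM, BID and BAD bind the guardians or the effectors, and active effectors open the membrane, release cytochrome c and start the caspase cascade. Further downstream XIAP binds and blocks caspases, while the product of Cflar, c-FLIP, limits activation of caspase 8 at death receptors. Many of these proteins are controlled by phosphorylation, cleavage and turnover, which RNA counts do not measure.

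Much of what follows concerns 3 guardian genes, and the 250 bases upstream of their first listed start are shown because their levels followed different cell classes. The sequences are from RefSeq on GRCm38.p6, in which all 10 members had an entry, and are written 5′ to 3′ as the table lists them for the gene's strand. A listed transcript was found in that direction for Bcl2 and Bcl2l1, while for Mcl1 neither direction held one, so its orientation was not checked. Capitals mark GC boxes (GGGCGG on either strand). The Bcl2 window is chr1:106714291-106714540 on the minus strand, the Bcl2l1 window chr2:152828490-152828739 on the minus strand, and the Mcl1 window chr3:95658471-95658720 on the plus strand. For Bcl2l1 it stands before the first of 3 listed starts and lies inside the annotated gene.
Bcl2: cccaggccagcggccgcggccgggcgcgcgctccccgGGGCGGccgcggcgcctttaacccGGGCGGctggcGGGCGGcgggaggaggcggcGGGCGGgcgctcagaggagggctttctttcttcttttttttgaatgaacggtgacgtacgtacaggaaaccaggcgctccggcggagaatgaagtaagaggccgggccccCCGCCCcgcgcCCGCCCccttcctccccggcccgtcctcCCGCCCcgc
Bcl2l1: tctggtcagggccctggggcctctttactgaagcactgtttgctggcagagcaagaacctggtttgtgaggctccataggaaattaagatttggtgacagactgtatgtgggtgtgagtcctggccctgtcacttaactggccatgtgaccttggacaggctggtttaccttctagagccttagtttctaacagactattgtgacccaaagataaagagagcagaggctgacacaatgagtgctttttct
Mcl1: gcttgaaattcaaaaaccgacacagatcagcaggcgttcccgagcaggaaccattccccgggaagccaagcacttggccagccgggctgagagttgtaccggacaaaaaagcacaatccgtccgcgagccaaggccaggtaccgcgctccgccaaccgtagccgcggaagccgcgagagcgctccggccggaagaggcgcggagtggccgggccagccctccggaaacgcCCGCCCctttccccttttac
The Bcl2 window held 7 GC boxes and was 74.8% G or C, the Mcl1 window held 1 GC box at 64.4%, and the Bcl2l1 window held none at 48.4%. Over 27025 promoter windows of the same length, 32.9% held a GC box and the median was 52.0% G or C. None of the 3 windows held the letters of a CCAAT box on either strand, which 34.5% of all windows held. The same was true of the TATA box (searched as TATAAA, in 13% of all windows) and of the AP-1 site (searched as TGANTCA, in 6.87%). On mm10, by the GENCODE annotation, Bcl2 spans chr1:106538178-106714274 and is 94.8% intronic, Bcl2l1 spans chr2:152780668-152831728 and is 91.0% intronic, and Mcl1 spans chr3:95658788-95663176 and is 22.1% intronic. The promoter matches describe letters in a window and say nothing of a factor's binding.

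The libraries held 129530270 unique molecular identifiers (UMIs, each a captured RNA molecule) over 9258 barcodes in DOX and 97887259 over 8083 in DOX plus AMH. After filtering, 7303 and 6739 cells were kept, with median depths of 13690 and 10101 UMIs, and 13 kept barcodes occurred in both libraries. Cells were sorted into 10 classes by fixed marker genes, from 4344 and 3499 stromal-like cells down to 77 and 83 lymphocyte-like cells. Clusters held almost wholly by 1 library included a vascular endothelial-like one (70 and 0 cells), a lymphatic endothelial-like one (40 and 1) and the squamous keratin-rich cells (7 and 483), which were not compared. The dendritic-like cluster listed Igkc, Jchain and Ighm among its top genes beside Cd209a and Cd74, so its name rests on mixed markers. The summed level of 6 erythroid genes was more than 2-fold higher in DOX plus AMH in all 10 classes. In lymphocyte-like cells it was 31.3 UMIs per 1000000 UMIs of the class (CPM) in DOX and 14293 CPM in DOX plus AMH. The pericyte-like name rests on mixed markers too. In that class 10 smooth muscle markers summed to 19322 and 17025 CPM, and 10 pericyte markers to 2825 and 3814. Most of its cells lay in cluster 18 (147 and 240), which had 0 pericyte markers among its top genes, Rergl, Mustn1 and Pln being among them. A set of 11 immediate-early and heat shock genes that respond to tissue handling had a median log2 ratio above 0 in all 10 classes, 0.66 for stromal-like cells and 0.88 for mesothelial-like cells. With 1 pooled library per group there was no replicate, so animals, handling and treatment cannot be told apart, no test was made, and each interval below covers counting error only.

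Each comparison below is the log2 ratio of the CPM in DOX plus AMH over the CPM in DOX. A gene was counted in a class where it had at least 50 UMIs over both libraries and was called higher or lower from 1.3-fold on. Of the 100 pairs of member and class, 86 were counted. In 11 pairs (12.8%) the level was lower in DOX plus AMH, against 13.9% of all 94617 pairs of gene and class, and in 14 pairs (16.3%) it was higher, against 19.2% of all pairs. Neither share of the members stood above that of all genes. The interval lay wholly below 0 in 7 of the lower pairs and wholly above 0 in 11 of the higher pairs. The share of all genes with such intervals was not computed, and the intervals hold no difference between animals. The median log2 ratio over the 86 pairs was 0.07 and the range ran from -1.33 to 1.20.

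The calls were spread unevenly over the classes, and so were those of all genes. Mesothelial-like cells held the most, with 4 of 9 counted members lower and 2 higher, beside 29.8% and 14.4% of all genes counted there. In macrophage or monocyte-like cells 2 of 9 members were lower and 2 higher, beside 14.5% and 26.0% of genes. Dendritic-like cells had 1 lower and 2 higher of 7, beside 16.5% and 23.8%. Those 3 classes thus held members called in both directions, as did 2 more. Pericyte-like cells had 1 lower and 1 higher of 9 members, beside 10.5% and 19.7% of genes. Lymphocyte-like cells had 1 lower and 2 higher of 6, beside 21.5% and 17.8%.

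In the other 5 classes the calls went one way or were absent. Lymphatic endothelial-like cells had 3 of 9 members higher and 0 lower, beside 17.2% and 16.0% of genes, and stromal-like cells 2 of 10 higher and 0 lower, beside 24.8% and 5.11%. Epithelial-like cells had 2 of 9 lower and 0 higher, beside 10.9% and 13.1%. Neither smooth muscle-like nor vascular endothelial-like cells had a call among 9 counted members. Without the cluster of 1 library, Bcl2l11 in vascular endothelial-like cells was called lower at -0.42 (-0.93 to 0.09). Under TMM scaling Bok was called higher in that class (0.41; -0.06 by CPM without the cluster of 1 library) and Bad lower in smooth muscle-like cells (-0.41). Of all genes 7.52% were lower and 21.3% higher in the smooth muscle-like cells, and 20.2% and 13.9% in the vascular endothelial-like cells.

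**Figure D1:**
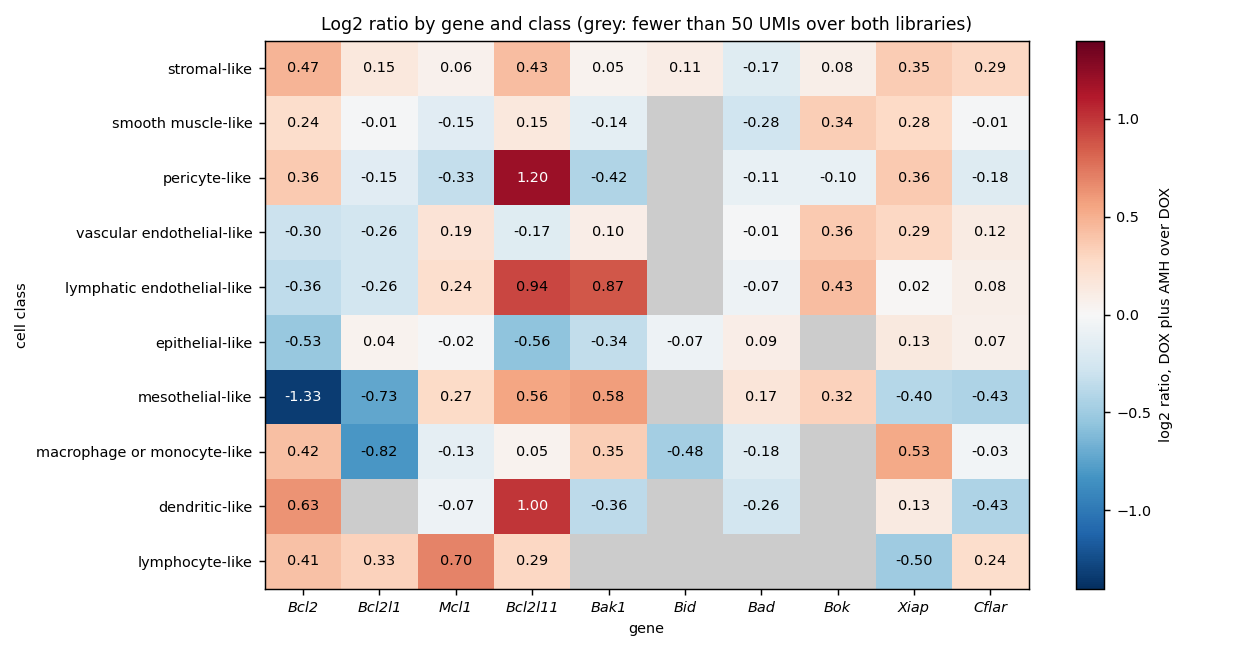
Log2 ratio (colour and number) of the level in DOX plus AMH over DOX for each of the 10 genes (columns) in each of the 10 cell classes (rows), 1 library per group; grey cells had fewer than 50 UMIs. The lowest value is Bcl2 in mesothelial-like cells (-1.33) and the highest Bcl2l11 in pericyte-like cells (1.20).

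Bcl2, the founding guardian of the family, differed widely in level between cell classes. Lymphocyte-like cells stood at 481 CPM in the DOX library and 640 CPM in the other. Next came smooth muscle-like cells with 162 and 191, pericyte-like cells with 102 and 131, and stromal-like cells with 89.8 and 125. At the other end stood epithelial-like cells with 15.7 and 10.9 CPM, a 30.7-fold distance from the highest class in DOX and 58.8-fold in DOX plus AMH. Pericyte-like and stromal-like cells could not be ordered, since their intervals overlapped in both libraries, while lymphocyte-like and smooth muscle-like cells were apart from the next class in both. Vascular and lymphatic endothelial-like, dendritic-like and macrophage or monocyte-like cells lay between, from 31.7 to 65.4 CPM in DOX.

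In stromal-like cells the Bcl2 level was 89.8 CPM (5745 UMIs) in DOX and 125 CPM (4641 UMIs) in DOX plus AMH, a log2 ratio of 0.47 (95% interval 0.42 to 0.53). The level was thus higher in DOX plus AMH. The median of all 15493 genes counted in that class was itself 0.18, and TMM scaling, which centres the bulk of genes, brought Bcl2 to 0.25, short of 1.3-fold. Read within the 6 stromal-like clusters, Bcl2 was above 0 in 6 of 6, from 0.22 to 0.91. The highest value came from cluster 9, at 71.4 CPM in DOX and 134 in DOX plus AMH. Clusters of a class share the 2 libraries, so they do not repeat the comparison. For Bcl2 and for the members below, the share of all genes with 1 sign in every cluster was not computed.

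The other 3 classes with Bcl2 called higher were dendritic-like (31.7 and 49.1 CPM, log2 0.63), macrophage or monocyte-like (32.4 and 43.3, log2 0.42) and lymphocyte-like cells (log2 0.41). In the dendritic-like cells the summed level of 14 lymphocyte markers was 22.5 CPM in DOX and 235 CPM in DOX plus AMH, and that of 10 smooth muscle markers 182 and 810 CPM. Both belong to the classes highest in Bcl2, and their part in the Bcl2 value was not tested. In macrophage or monocyte-like cells the interval reached -0.004, TMM scaling gave 0.30, and with each cell weighted equally the sign turned to -0.05. Smooth muscle-like and pericyte-like cells had 0.24 (0.15 to 0.34) and 0.36 (0.12 to 0.61), both under the fold. Of the 2 smooth muscle-like clusters, the one with Acta1 and Tnni2 among its top genes had 183 and 237 CPM (log2 0.37, 0.24 to 0.50). The other had 141 and 149 (log2 0.08, -0.07 to 0.23).

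Bcl2 was called lower in 2 classes. Mesothelial-like cells had 50.02 CPM (115 UMIs) in DOX and 19.9 CPM (67 UMIs) in DOX plus AMH, a log2 ratio of -1.33 (-1.79 to -0.89). Epithelial-like cells had 200 and 74 UMIs and a log2 ratio of -0.53 (-0.93 to -0.14). With each cell weighted equally these became -0.72 and -0.11, so the epithelial-like value no longer passed the fold. In mesothelial-like cells all 11 handling genes were higher. Markers of other cells moved there too: summed smooth muscle markers stood at 1214 and 333 CPM, stromal markers at 12968 and 9363, and dendritic markers at 201 and 1658. The part of handling and of other cells in the Bcl2 value was not tested. Bcl2 had log2 ratios of -0.30 in vascular and -0.36 in lymphatic endothelial-like cells, and of -0.07 and 0.06 without the clusters of 1 library.

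**Figure D2:**
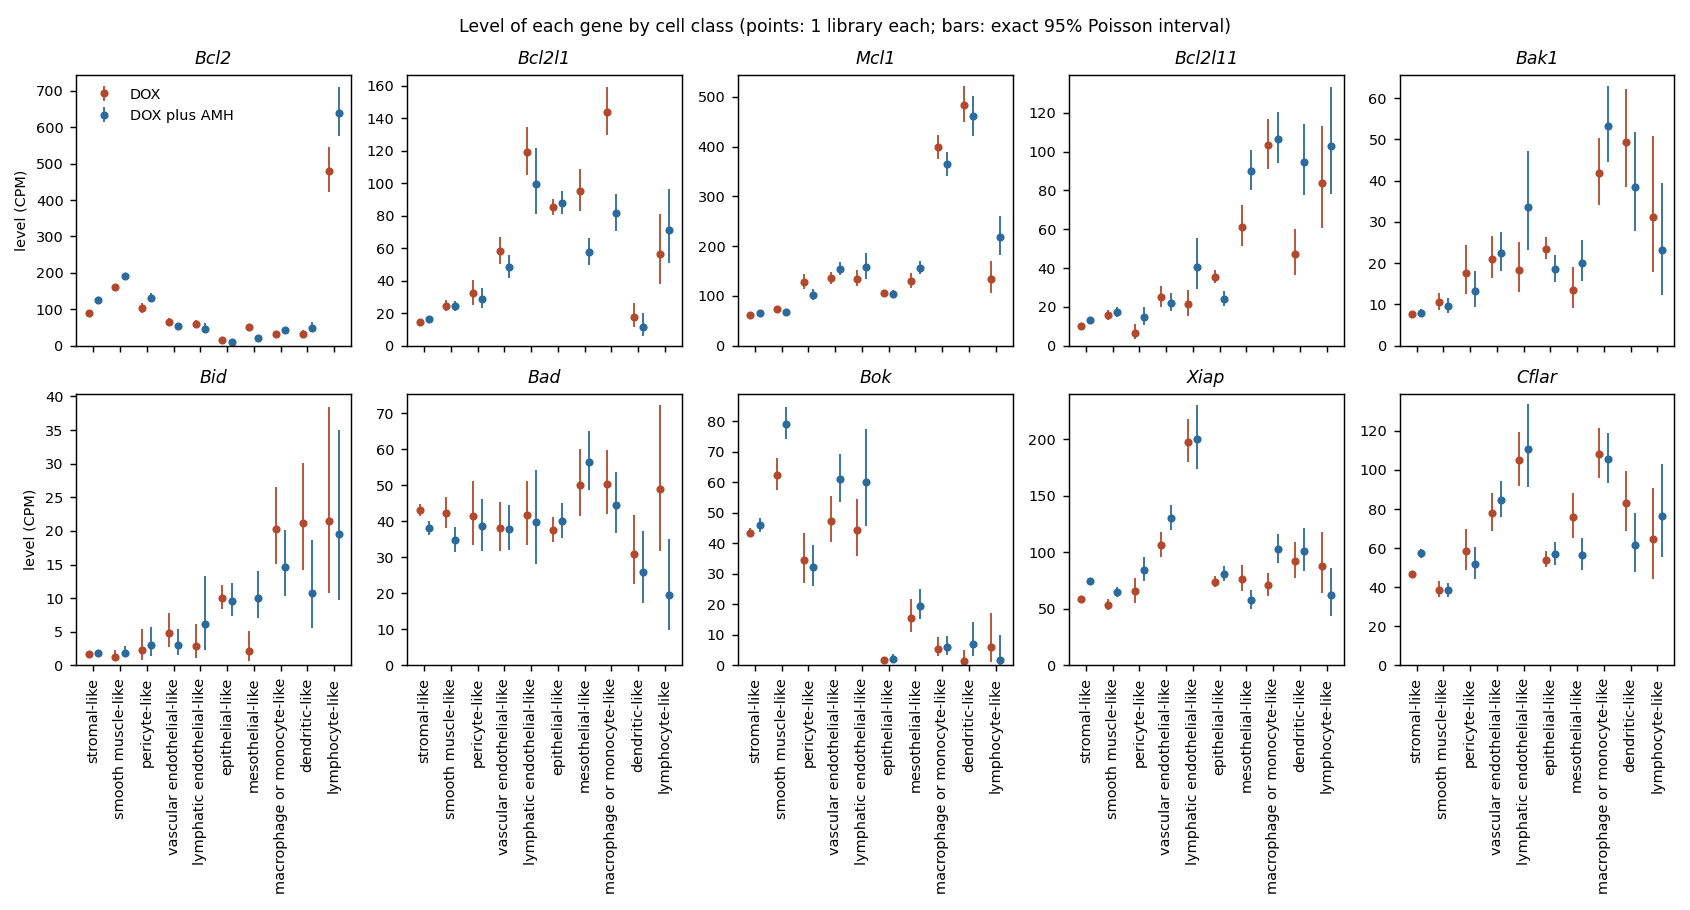
Level in CPM of each member (panels) in the 10 cell classes (horizontal axis); points are 1 library each (red DOX, blue DOX plus AMH) and bars exact 95% Poisson intervals. Each panel has its own scale; Bcl2 peaks in lymphocyte-like cells, Mcl1 in dendritic-like cells and Xiap in lymphatic endothelial-like cells.

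Bcl2l1, which encodes the guardian BCL-XL, peaked in other classes than Bcl2. Its lowest levels were in the stromal-like cells (14.8 and 16.4 CPM) and the dendritic-like cells (17.6 and 11.6), whose intervals overlapped. In DOX its highest level was 144 CPM in macrophage or monocyte-like cells, and in DOX plus AMH 99.8 CPM in lymphatic endothelial-like cells. Epithelial-like cells held 85.3 and 87.9 CPM, so Bcl2 UMIs per Bcl2l1 UMI were 0.184 and 0.124 there. The same ratio was 6.06 and 7.60 in stromal-like, 6.59 and 7.86 in smooth muscle-like and 8.48 and 9.0 in lymphocyte-like cells. The ratio compares classes, not RNA amounts of the genes, since the capture of each gene from its 3′ end is unknown.

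In 2 classes Bcl2l1 was called lower in DOX plus AMH, and in none of the 9 counted classes was it called higher. Macrophage or monocyte-like cells had 369 UMIs (144 CPM) in DOX and 207 UMIs (81.5 CPM) in DOX plus AMH, a log2 ratio of -0.82 (-1.07 to -0.57). Mesothelial-like cells had 95.3 and 57.5 CPM, a log2 ratio of -0.73 (-1.02 to -0.44). In both classes the intervals of the levels did not overlap between libraries, and under TMM scaling the ratios were -0.94 and -0.58. In stromal-like cells the log2 ratio was 0.15, and -0.08 under TMM scaling, so no direction was read. Leaving out the clusters of 1 library changed both endothelial classes. The lymphatic endothelial-like ratio went from -0.26 to -0.53 (-0.90 to -0.18), past the fold, and the vascular endothelial-like ratio from -0.26 to 0.23 (-0.16 to 0.64).

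Mcl1, the short-lived guardian, marked the myeloid classes. Its level was 485 and 461 CPM in dendritic-like and 399 and 364 CPM in macrophage or monocyte-like cells, and these 2 classes were apart from each other and from all the rest in both libraries. Stromal-like cells were lowest, at 62.2 and 65.0 CPM. Between the libraries the only call was in lymphocyte-like cells, with 69 UMIs (135 CPM) and 123 UMIs (219 CPM), a log2 ratio of 0.70 (0.26 to 1.15). The erythroid genes named above were highest in this class in DOX plus AMH. Their part in the Mcl1 value was not tested. Over the other classes the ratio ran from -0.33 in pericyte-like to 0.27 in mesothelial-like cells. Under TMM scaling these 2 became -0.40 and 0.42 and passed the fold. In macrophage or monocyte-like cells the ratio was -0.13, or -0.43 with each cell weighted equally.

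Among the BH3-only members, Bcl2l11 (which encodes BIM, a ligand of all guardians) had the most calls, higher in 5 of 10 classes and lower in 1. Dendritic-like cells had 67 UMIs (47.2 CPM) in DOX and 106 UMIs (94.6 CPM) in DOX plus AMH, a log2 ratio of 1.00 (0.55 to 1.47). Lymphatic endothelial-like cells had 21.3 and 40.7 CPM, a log2 ratio of 0.94 (0.28 to 1.58). In mesothelial-like cells the level was 61.3 and 90.1 CPM, a log2 ratio of 0.56 (0.26 to 0.85). Each of these 3 values kept its call under TMM scaling. The lymphatic endothelial-like value was 0.60 (-0.09 to 1.28) without the cluster of 1 library. In dendritic-like cells the summed erythroid level was 14.8 CPM in DOX and 9017 CPM in DOX plus AMH, and its part was not tested.

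Pericyte-like cells had the largest Bcl2l11 ratio, 1.20 (0.30 to 2.18), on 14 and 45 UMIs only. The summed erythroid level there was 16.3 CPM in DOX and 7706 CPM in DOX plus AMH, and its part was not tested. Stromal-like cells had 9.91 and 13.4 CPM, a log2 ratio of 0.43 (0.26 to 0.60), which TMM scaling brought to 0.20. The 6 stromal-like clusters were all above 0, from 0.06 to 1.07. Unnamed clusters nearest to stromal-like cells stood at -0.31 and 0.21. With unnamed clusters put in the nearest class, the stromal-like ratio was 0.305 (0.15 to 0.46), short of the fold. Epithelial-like cells went the other way, with 454 UMIs (35.6 CPM) in DOX and 164 UMIs (24.1 CPM) in DOX plus AMH, a log2 ratio of -0.56 (-0.83 to -0.30). By level, macrophage or monocyte-like cells were highest in both libraries (103 and 107 CPM), though their intervals overlapped those of lymphocyte-like cells.

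Bad, whose protein is held inactive by survival kinases, was among the most even members. Its highest class was only 1.62-fold above the lowest in DOX and 2.88-fold in DOX plus AMH, and each class overlapped its neighbour in the order of levels. No call was made in the 9 classes counted. In stromal-like cells 2750 UMIs (43.0 CPM) stood against 1417 UMIs (38.1 CPM), a log2 ratio of -0.17 (-0.27 to -0.08), and all 6 stromal-like clusters were below 0. Under TMM scaling Bad was called lower in 3 classes, stromal-like (-0.40), dendritic-like (-0.397) and smooth muscle-like cells (-0.41). With each cell weighted equally it was -0.47 in vascular endothelial-like cells, against -0.01 from summed UMIs.

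Bid, which links death receptors to mitochondria once caspase 8 cleaves it, was sparse. It reached 50 UMIs in 3 classes only, with 1.72 and 1.85 CPM in stromal-like, 10.0 and 9.56 in epithelial-like and 20.3 and 14.6 in macrophage or monocyte-like cells. The last was called lower, with a log2 ratio of -0.48 and an interval from -1.13 to 0.16. The gene overlaps Bcl2l13 on the opposite strand, which had 1941 and 1867 UMIs in all barcodes against 492 and 505 for Bid. Bcl2, Bak1 and Bad each overlap 1 counted gene on the opposite strand too, with fewer UMIs than the member itself.

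Of the effector members, Bak1 was highest in macrophage or monocyte-like cells (41.7 and 53.2 CPM) and dendritic-like cells (49.3 and 38.4), whose intervals overlapped. It was lowest in stromal-like cells (7.58 and 7.87). It was called higher in lymphatic endothelial-like cells, where 39 and 33 UMIs gave 18.4 and 33.6 CPM and a log2 ratio of 0.87 (0.15 to 1.57; 0.85 without the cluster of 1 library), and in mesothelial-like cells (0.58, -0.05 to 1.24). Pericyte-like cells were called lower, at -0.42 (-1.09 to 0.26). The last 2 intervals held 0. Across the 20 points of class and library, Bak1 and Mcl1 had a Pearson r of 0.91 on log2(CPM + 1), a description over points that share libraries.

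Bok, a BAX-like protein of endoplasmic reticulum and mitochondria known in reproductive tissues, was low in immune and epithelial-like cells. Smooth muscle-like cells had 62.5 and 79.2 CPM, and vascular endothelial-like cells 47.4 and 61.0. Epithelial-like cells had 1.65 and 2.21 CPM on 21 and 15 UMIs, while the level over all barcodes was 38.3 and 38.7. The log2 ratio was 0.34 (0.19 to 0.49) in smooth muscle-like cells and above 0 in both clusters, which is under 1.3-fold, and 0.21 under TMM scaling. The only call was in lymphatic endothelial-like cells, 0.43 (-0.06 to 0.92). Without the cluster of 1 library, Bok there was 0.31 and short of the fold. In the stroma the clusters differed: cluster 5 had 38.5 and 24.1 CPM (log2 -0.68, -1.10 to -0.26), and the class as a whole 0.08. The pericyte-like clusters differed in level, with 81.8 and 78.1 CPM in cluster 10 and 16.2 and 13.9 in cluster 18.

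**Figure D3:**
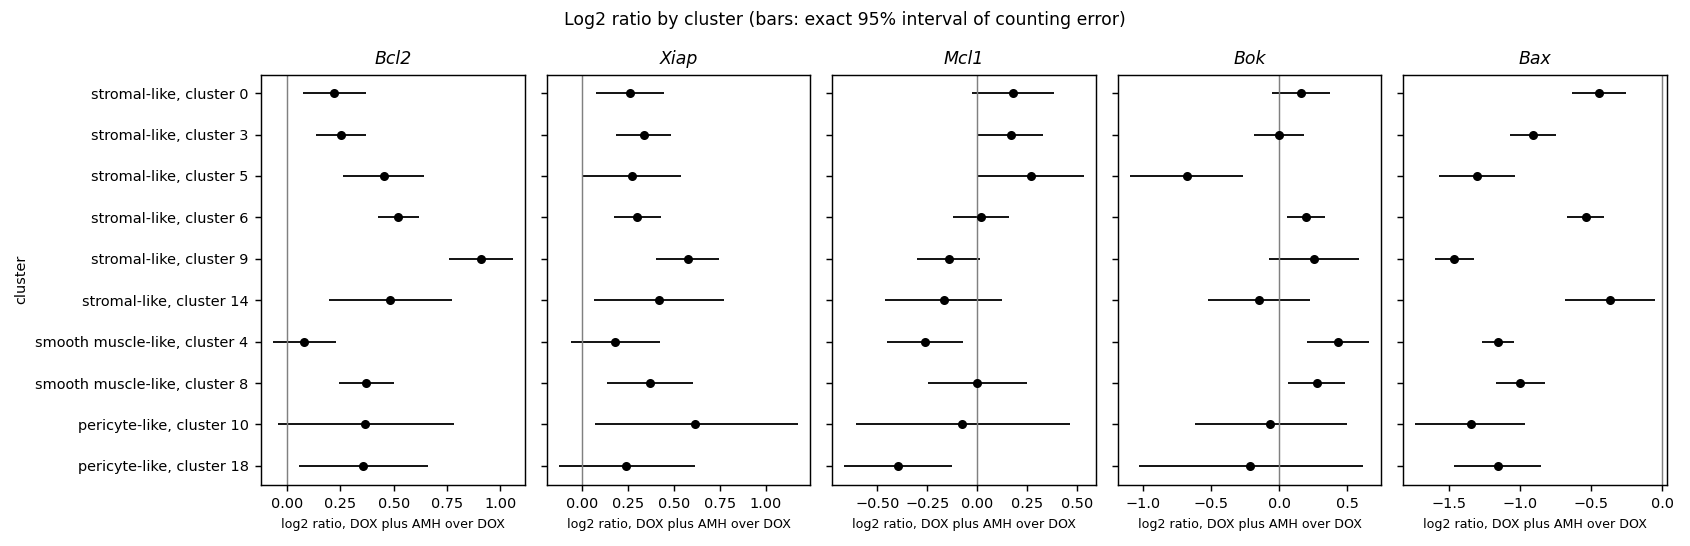
Log2 ratio of DOX plus AMH over DOX (points) with its exact 95% counting interval (bars) for 5 genes (panels) in each stromal-like, smooth muscle-like and pericyte-like cluster (rows). Bcl2 and Xiap lie above 0 in all 10 clusters shown and Bax below 0 in all 10, while Bok in cluster 5 lies at -0.68. All clusters come from the same 2 libraries, and the share of all genes alike in sign was not computed. The median of all counted genes was 0.18 in stromal-like, 0.14 in smooth muscle-like and 0.07 in pericyte-like cells.

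Of the caspase brakes, Xiap was most abundant in lymphatic endothelial-like cells. It stood there at 198 and 201 CPM, apart from vascular endothelial-like cells, the next class, at 107 and 130. Without the lymphatic cluster of 1 library the levels were 243 and 201 CPM. Xiap was called higher in macrophage or monocyte-like cells, with 182 UMIs (71.0 CPM) in DOX and 261 UMIs (103 CPM) in DOX plus AMH, a log2 ratio of 0.53 (0.26 to 0.81). It was called lower in lymphocyte-like (-0.50, -1.18 to 0.17) and mesothelial-like cells (-0.40, -0.70 to -0.10). The lymphocyte-like value rested on 45 and 35 UMIs and was 0.05 with each cell weighted equally. TMM scaling brought the mesothelial-like value to -0.25. In stromal-like cells 58.3 and 74.3 CPM gave 0.35 (0.28 to 0.42), with 6 of 6 clusters above 0. The median of all genes counted in that class was 0.18, and TMM scaling brought Xiap there to 0.13.

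Cflar was nearly level between lymphatic endothelial-like (105 and 111 CPM) and macrophage or monocyte-like cells (108 and 106), and lowest in smooth muscle-like cells (38.7 and 38.4). It was called lower in dendritic-like cells, with 83.1 and 61.6 CPM and a log2 ratio of -0.43 (-0.88 to 0.01), and in mesothelial-like cells, with 76.1 and 56.6 CPM and -0.43 (-0.73 to -0.12). Under TMM scaling the mesothelial-like value was -0.28. Stromal-like cells had 46.7 and 57.3 CPM (0.29, 0.21 to 0.37), again above 0 in 6 of 6 clusters, but 0.07 under TMM scaling. No class had Cflar called higher. With each cell weighted equally, however, epithelial-like cells were past the fold, at 0.64 against 0.07 from summed UMIs.

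A list of 42 other genes of the death pathway gave 285 counted pairs of gene and class. Of these, 59 (20.7%) were lower in DOX plus AMH and 38 (13.3%) higher, beside 13.9% and 19.2% of all pairs of gene and class, with a median log2 ratio of 0.00. The members had 12.8% lower and 16.3% higher in the same classes. Both the list and the members were chosen with earlier results of these data known, so these shares only describe the chosen genes. Bax, the effector that the list holds beside the members Bak1 and Bok, was called lower in 9 of 10 classes. It had 112 CPM in DOX and 59.1 CPM in DOX plus AMH in stromal-like cells (log2 -0.93, -0.997 to -0.86). In the smooth muscle class it had 267 and 125 CPM (log2 -1.09, -1.19 to -0.998). Bak1 in the same 2 classes had log2 ratios of 0.05 and -0.14.

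In stromal-like cells 3 of 36 counted list genes were lower and 3 higher, beside 5.11% and 24.8% of all genes. The lower ones were Birc5, which serves cell division as well as caspase inhibition (2.11 and 0.779 CPM), Bax, and the initiator caspase gene Casp8 (8.66 and 6.37). The higher ones were the BH3-only genes Hrk (3.49 and 5.89 CPM) and Bik (0.844 and 1.37) and the ubiquitin ligase gene Birc2 (23.4 and 30.8).

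In smooth muscle-like cells 9 of 33 counted list genes were lower and 3 higher, beside 7.52% and 21.3% of all genes, while none of the 9 counted members passed the fold either way. The 6 largest differences there were all lower in DOX plus AMH. Bbc3, which encodes the BH3-only protein PUMA, had 37.1 and 11.2 CPM (log2 -1.73, -2.03 to -1.43). Next by size of ratio came Bax, the death receptor gene Fas (29.9 and 15.4 CPM), the apoptosome scaffold gene Apaf1 (50.7 and 27.6), the nuclease gene Dffb (8.54 and 5.25) and the death receptor gene Tnfrsf10b (15.7 and 10.1).

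**Figure D4:**
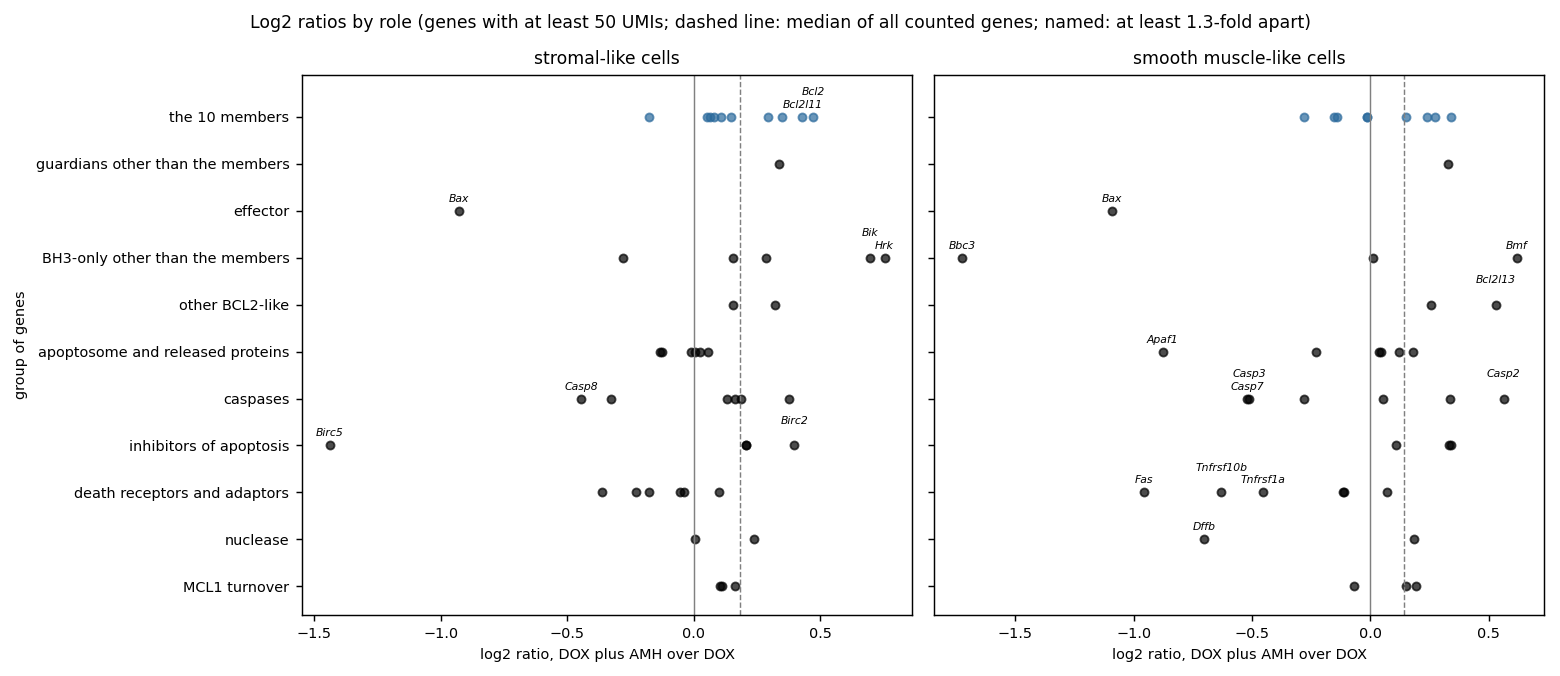
Log2 ratio of DOX plus AMH over DOX (horizontal axis) of the members and of the other death-pathway genes by role (rows), for the stroma on the left and smooth muscle on the right; each point is a gene, the solid line marks 0 and the dashed line the median of all counted genes. In smooth muscle-like cells the members lie between -0.28 and 0.34, and Bbc3 lies at -1.73.

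Set against Bax within each library, a quantity that does not depend on how the libraries are scaled, Bcl2 and Mcl1 differed in most classes. Stromal-like cells had 0.799 Bcl2 UMIs per Bax UMI in DOX and 2.11 in DOX plus AMH, a log2 change of 1.401 (1.31 to 1.49). The smooth muscle class had 0.605 and 1.53 (1.33, 1.20 to 1.47), and pericyte-like cells 0.554 and 1.67 (1.59, 1.25 to 1.92). The interval lay above 0 in 6 of 10 classes for Bcl2 and in 9 of 10 for Mcl1, all but the lymphatic endothelial-like cells. For Bcl2l1 it lay above 0 in 5 of 10 classes. Mesothelial-like cells went the other way for Bcl2, at 0.167 and 0.107 (-0.64, -1.12 to -0.16). Lymphatic endothelial-like cells did so for Bcl2l1 (-0.39, -0.79 to -0.005), with an interval that held 0 without the cluster of 1 library (-0.79 to 0.015). In stromal-like cells Bcl2 differed by 0.47 and Bax by -0.93, while in mesothelial-like cells Bcl2 differed by -1.33 and Bax by -0.70. Mcl1 by itself was called in lymphocyte-like cells only. Its log2 ratios were 0.06 in stromal-like, -0.155 in smooth muscle-like and -0.33 in pericyte-like cells, but 0.99, 0.94 and 0.895 against Bax. Bax was called lower in 9 of 10 classes, so a gene of steady level also rises against it. The share of all genes that did so was not computed. Without the clusters of 1 library the interval lay above 0 in vascular endothelial-like cells for Bcl2 (0.705, 0.31 to 1.10) and Bcl2l1 (1.01, 0.56 to 1.47), and in lymphatic endothelial-like cells for Mcl1 (0.36, 0.01 to 0.71).

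**Figure D5:**
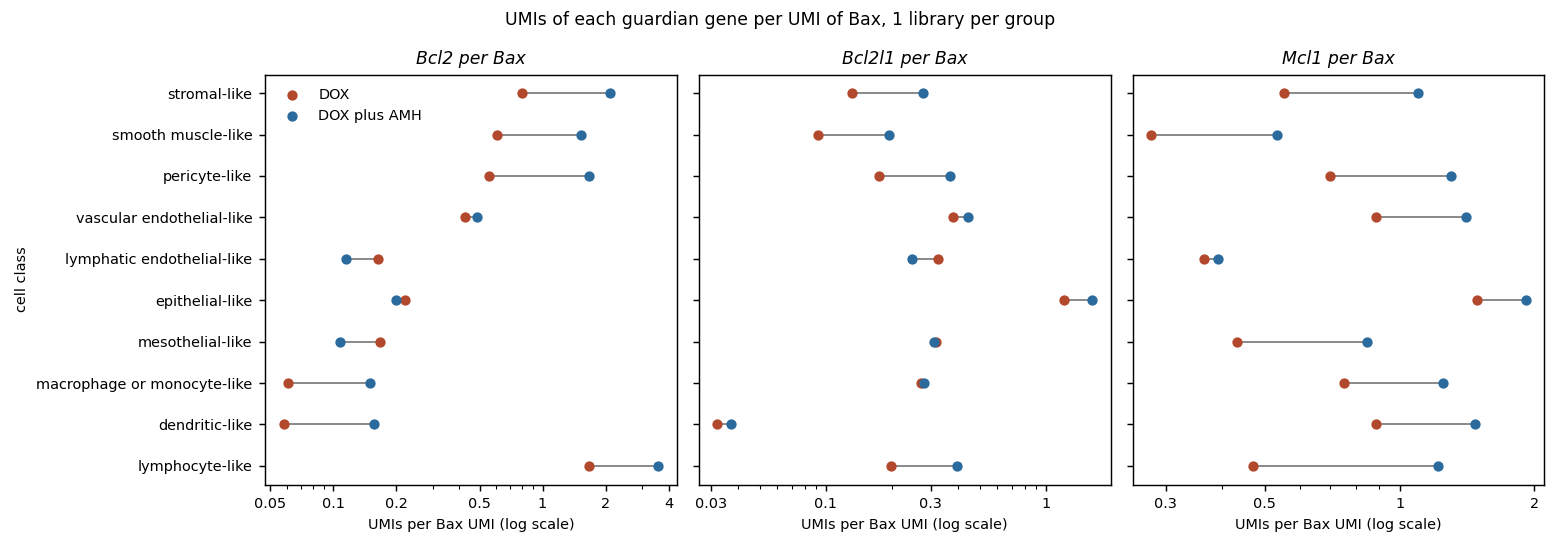
UMIs of Bcl2, Bcl2l1 and Mcl1 per UMI of Bax (horizontal log axis) in each cell class (rows); points are 1 library each (red DOX, blue DOX plus AMH), joined by a line. Bcl2 per Bax goes from 0.799 to 2.11 in stromal-like cells and from 0.167 to 0.107 in mesothelial-like cells.

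Against Bcl2l11 the picture was different. Bcl2 UMIs per Bcl2l11 UMI were 9.06 and 9.34 in stromal-like cells (log2 change 0.04, -0.14 to 0.22) and 10.4 and 11.1 in smooth muscle-like cells. In mesothelial-like cells they were 0.816 and 0.220, a log2 change of -1.89 (-2.43 to -1.34). Lymphatic endothelial-like cells had 2.82 and 1.15 (-1.30, -2.13 to -0.46), on 45 and 40 Bcl2l11 UMIs. Without the cluster of 1 library the lymphatic values were 1.71 and 1.18, and the change of -0.54 had an interval that held 0 (-1.44 to 0.37). The other guardians were not alike: in stromal-like cells Mcl1 per Bcl2l11 changed by -0.37 (-0.55 to -0.18) and Bcl2l1 by -0.28 (-0.51 to -0.06). Both ratios went up in epithelial-like cells, by 0.54 (0.25 to 0.83) and 0.61 (0.31 to 0.90). By themselves Mcl1 and Bcl2l1 had log2 ratios of -0.02 and 0.04 there, and Bcl2l11 -0.56. In stromal-like cells these were 0.06, 0.15 and 0.43. A gene of steady level thus also shifts against Bcl2l11, and the share of all genes that did so was not computed.

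The barcodes that failed the cell filter, 1475 in DOX and 1018 in DOX plus AMH, also held RNA of the members. In DOX 5 members had a lower and 5 a higher level than in kept cells, and in DOX plus AMH all 10 had a lower one. These counts take no account of intervals, and the share of all genes was not computed. Xiap in DOX, for example, stood at 64.8 CPM in failed and 65.0 in kept barcodes. The failed barcodes had a median mitochondrial share of 18.0% in DOX and 13.5% in DOX plus AMH, and its part was not tested. Bcl2 stood at 106 CPM in failed against 80.6 CPM in kept barcodes of DOX, and at 90.3 against 105 CPM in DOX plus AMH. Free RNA also adds UMIs to droplets whose cell does not express a gene, and its part in the lowest levels above was not tested.

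Across the 20 points of class and library, each member was matched to the other genes by Pearson r of log2(CPM + 1), over 10273 genes. The most alike were AY036118 for Bcl2 (0.90), Trip12 for Bcl2l1 (0.91), Synj1 for Mcl1 (0.96) and Tnfrsf1b for Bcl2l11 (0.95). For Bak1 it was Arhgdia (0.95), for Bid Runx1 (0.94), for Bad Smpd1 (0.82), for Bok Hoxd10 (0.95), for Xiap Abhd17b (0.92) and for Cflar Rac1 (0.91). The points share libraries and depth, so these are descriptions of likeness in level. Among the members themselves, Bid and Bok were the most opposed, with r of -0.84. Bid reached 50 UMIs in 3 and Bok in 6 of the 10 classes, so several of these points rest on few UMIs. In lymphocyte-like cells, for example, Bok had 3 and 1 UMIs.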

How the data were processed

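The authors deposited raw UMI counts per gene and barcode for 2 libraries (10x Genomics 3′ chemistry, per the labels' protocols), made with Cell Ranger 7.0.0 on mm10, per the submitters' processing notes. Whether intronic reads were counted is not given in the sources used here; introns make up 94.8% of the Bcl2 locus and 22.1% of the Mcl1 locus. The deposited barcodes held at least 500 UMIs each.

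Barcodes with at least 1000 UMIs, 500 genes and at most 15% mitochondrial UMIs were kept, and Scrublet doublets (6.17% and 4.61%) removed. Cells of both libraries were clustered together in scanpy 1.11.5 (2000 variable genes, 30 components, 15 neighbours, Leiden resolution 1); no member was among the variable genes. Clusters were named from marker lists; how markers were scored was decided with the clusters in view, the last of 3 ways tried, and earlier scorings named some clusters differently. Unnamed clusters held 637 and 217 cells. Clusters of 257 and 46 and of 311 and 147 of these cells were nearest to stromal-like cells. A cluster of 69 and 24 was nearest to epithelial-like cells. Classes with at least 50 cells in each library were compared.

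For each class and library the UMIs of its cells were added up and expressed as CPM, with exact Poisson intervals; ratios have exact binomial 95% intervals. Changes of a ratio between genes have exact intervals where a count was under 100 and intervals from the variance of log counts otherwise. TMM factors came from edgeR 4.0.16. The scripts were tested on simulated data. Members and lists were chosen with earlier results of these data known. All members were named, with up to 6 list genes with the largest absolute log2 ratio in stromal-like and in smooth muscle-like cells, and the gene most like each member in level.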

Additional observations from a re-analysis of the deposited data

Results flagged for a closer look

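For 3 genes the level was at least 1.3-fold lower in 1 cell class and at least 1.3-fold higher in another, each with a counting interval clear of 0; these differences between classes were not tested, since each group is 1 library. Bcl2 was lower in DOX plus AMH in mesothelial-like cells and higher in dendritic-like cells, a difference of log2 ratios of 1.964. Bcl2l11 was lower in epithelial-like cells and higher in pericyte-like cells, a difference of 1.76 that rests on 14 and 45 pericyte-like UMIs. The part of the erythroid level in pericyte-like cells, 16.3 and 7706 CPM, was not tested. Xiap was lower in mesothelial-like cells and higher in macrophage or monocyte-like cells, a difference of 0.93. In mesothelial-like cells the median of all genes was -0.15, and in macrophage or monocyte-like cells 0.11.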

How the results depend on the processing

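At 1.5-fold in place of 1.3-fold the members gave 3 lower and 6 higher pairs in place of 11 and 14, and the other death-pathway genes 31 lower and 18 higher in place of 59 and 38. With each library clustered on its own, 13 member pairs were lower and 9 higher; that setting and Leiden resolution 0.5 compared 9 classes and 79 member pairs, and the latter gave 11 lower and 11 higher. With each cell weighted equally, the sign turned for Xiap in lymphocyte-like cells (0.049) and Bcl2 in macrophage or monocyte-like cells (-0.052), and 11 member pairs were lower and 19 higher. Under the other settings, which were another cell filter or none, doublets kept, clustering without these genes, nuclear genes only, TMM scaling, no clusters of 1 library, a 20-UMI minimum and, chosen after seeing the data, unnamed clusters put in the nearest class, the members' lower pairs numbered 11 to 16 and the higher 12 to 17. TMM scaling kept 20 of the 25 calls, lost 5 (Bcl2 and Bcl2l11 in stromal-like, Bcl2 in macrophage or monocyte-like, Xiap and Cflar in mesothelial-like cells) and added 9 (lower: Bad in stromal-like, smooth muscle-like and dendritic-like, Bak1 in dendritic-like, Bcl2 in lymphatic endothelial-like and Mcl1 in pericyte-like cells; higher: Mcl1 and Bok in mesothelial-like and Bok in vascular endothelial-like cells), and 9 pairs changed sign. Without the clusters of 1 library, Bcl2l1 in lymphatic and Bcl2l11 in vascular endothelial-like cells became lower calls and Bok in lymphatic endothelial-like cells lost its call; for ratios between genes this was chosen after seeing the data. No paired analysis was possible because each group is 1 library. Depth limits Bid and Bok most: Bid was counted in 3 and Bok in 6 of 10 classes.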
